A study of Rattus norvegicus with 4 samples.

Results

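The genes described here encode proteins of the cytosolic ribosome, though not every such protein is covered. They were taken as every gene whose single annotated symbol has the form Rpl, Rplp or Rps followed by a number and at most 2 letters, which leaves out the S6 kinase genes. That name rule gave 43 of 14217 named genes, 30 of the large and 13 of the small subunit, each read from the probe set with its highest mean on the 4 arrays. A probe set is the group of short oligonucleotides that reports 1 transcript on an Affymetrix array.

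RNA of the CA3 area of the hippocampus, a field rich in kainate receptors, was measured in Sprague-Dawley rats 24 h after an injection into that structure. The groups were kainic acid with the peptide NAP (KA+NAP), kainic acid alone (KA), NAP alone, and the vehicle PBS, with 1 array per group. Kainic acid is an excitotoxin that activates kainate-type glutamate receptors, and NAP is a peptide derived from the neuroprotective protein ADNP. No age, genotype or number of animals behind an array is given in the labels, which name hippocampi as the frozen tissue while the series' design names the CA3 area. RNA of all samples was extracted at the same time. Single arrays leave the spread between animals unknown. No difference below therefore carries a p-value or SD, and the number of arrays limits the precision of all of them.

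A ribosome joins 2 subunits. The small one reads the messenger RNA, and the large one forms peptide bonds and passes the growing chain through its exit tunnel. Ribosomal protein messages are abundant in nearly every cell and begin with a run of pyrimidines, the 5′ terminal oligopyrimidine (TOP) tract. Through it mTOR signalling controls their translation, a step that an array of total RNA does not measure.

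Most members were on bright probe sets. Of the 43, 40 had a mean intensity over the 4 arrays above 62.75, which is the median of all non-control probe sets, and so passed the filter on dim probe sets. These were 28 large and 12 small subunit genes among 9489 genes that passed in all. Just above that threshold was Rpl28 at 80.2, followed by Rpl39 at 153.8 and Rps27l at 204.8. The other 37 were between 2014 and 8613. Below the threshold were Rps13 and Rpl3l, both at 17.8, and Rpl30 at 16.2. Rpl3l, the muscle-type paralogue of Rpl3, had intensities of 19 with KA+NAP, 18 with KA, 19 with NAP and 15 with PBS. Another 36 probe sets list several symbols, a ribosomal protein's among them, and are given below only as an unnamed set. Ribosomal protein genes have many processed copies, so a singly named probe set can also bind transcripts of copies. Markers of the labelled tissue were present: the neuronal genes Snap25 and Syt1 and the astrocyte gene Gfap passed the filter.

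Promoter stretches are shown for 7 members that stand at the ends of the differences described below. Rps27l, Rpl12 and Rpl18 had the highest KA differences, Rpl35 and Rpl11 were among the lowest, and Rpl21 and Rpl35a were among those whose KA differences with and without NAP lay farthest apart. Each line runs from 70 bases before to 20 bases after the start of the gene as RefSeq annotates it on GRCr8, 5′ to 3′ on the gene's strand, with pyrimidine runs of 6 or more letters in capitals.
Rps27l (chr8:76443588-76443677, plus strand): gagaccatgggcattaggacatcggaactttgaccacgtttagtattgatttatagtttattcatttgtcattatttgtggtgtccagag
Rpl12 (chr3:36661870-36661959, plus strand): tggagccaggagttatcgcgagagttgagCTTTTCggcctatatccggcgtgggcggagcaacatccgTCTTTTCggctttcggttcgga
Rpl18 (chr1:105325200-105325289, plus strand): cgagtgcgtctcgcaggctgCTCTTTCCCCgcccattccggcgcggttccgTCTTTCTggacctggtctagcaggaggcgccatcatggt
Rpl35 (chr3:43165902-43165991, minus strand): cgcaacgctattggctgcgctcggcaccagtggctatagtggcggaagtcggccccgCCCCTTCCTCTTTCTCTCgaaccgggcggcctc
Rpl11 (chr5:153560783-153560872, minus strand): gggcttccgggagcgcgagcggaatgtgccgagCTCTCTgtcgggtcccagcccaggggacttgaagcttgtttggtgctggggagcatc
Rpl21 (chr12:13386134-13386223, minus strand): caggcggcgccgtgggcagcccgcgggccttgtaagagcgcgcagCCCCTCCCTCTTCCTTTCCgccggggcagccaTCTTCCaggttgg
Rpl35a (chr11:81235002-81235091, minus strand): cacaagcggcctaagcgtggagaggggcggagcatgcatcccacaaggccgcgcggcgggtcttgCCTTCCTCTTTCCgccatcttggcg
The RefSeq table matched 34 of the 40 members past the filter. Of these, 28 (82.4%) had a run of at least 6 pyrimidines on the gene's strand within 20 bases of the annotated start, against 43.6% of all 27457 promoters. Rpl11 and Rps27l were among the 6 without one. The letters TTCCGG, the core bound by ETS factors, occurred on either strand in 11 of 34 windows of 250 bases before to 50 after the start (32.4%), against 15.8% of all promoters. AAGATGGC, a form of the YY1 site, occurred in 4 (11.8%), against 3.44%. These matches describe letters only. An annotated start can lie some bases from the real one.

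Nearly all ribosomal protein genes were brightest on the KA+NAP array. KA+NAP was the highest of the 4 arrays for 38 of the 40 members, a position it held for 32.2% of all 9489 genes. The 2 exceptions were Rpl28, highest with KA, and Rpl39, highest with PBS. All 12 small subunit genes past the filter had it highest. The lowest array was PBS for 23 members and NAP for 14, against 29.8% and 19.8% of all genes. KA was lowest for 3, Rpl23a, Rps29 and Rpl39, against 23.5% of all genes. In 25 members both arrays with kainic acid were above both arrays without it, against 32.3% of all genes. The reverse, both below, held for 0 members and 28.7% of all genes. In bulk RNA, more cells of a type and more message per cell cannot be told apart.

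The highest KA differences were those of Rps27l, Rpl12 and Rpl18. Throughout, differences are of log2(intensity + 10), and 1.2-fold and 2-fold are fixed rules of size. Rps27l, the paralogue of Rps27 that is known in human and mouse cells as a p53 target, had intensities of 312 with KA+NAP, 257 with KA, 144 with NAP and 106 with PBS. Both arrays with kainic acid were above both without, and it was 2.30-fold higher in KA against PBS and 2.09-fold higher in KA+NAP against NAP. It was dim, so these sizes depend on the pseudocount: with 50 in place of 10 the mean of the log2 differences was 0.94 rather than 1.13.

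Rpl12, which forms the base of the stalk where translation factors bind, had intensities of 2794 with KA+NAP, 2419 with KA, 1376 with NAP and 1469 with PBS. The arrays with and without kainic acid did not overlap, and the log2 differences were 0.72 in KA minus PBS and 1.02 in KA+NAP minus NAP. Rplp0, the stalk protein bound next to it, had 3929 with KA+NAP, 2884 with KA, 2239 with NAP and 2337 with PBS. Its difference was 0.30 in KA minus PBS and 0.81 in KA+NAP minus NAP, with the KA+NAP array apart from the other 3. The other stalk genes, Rplp1 and Rplp2, were not analysed here.

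Rpl18, a large subunit protein, had intensities of 4082 with KA+NAP, 2823 with KA, 2127 with NAP and 1807 with PBS. All 4 arrays were spaced apart, and its KA+NAP minus PBS difference of 1.17 and that of Rps27l at 1.47 were the 2 at 2-fold in that comparison, where 7.41% of all genes were at least 2-fold higher. In it 30 members were at least 1.2-fold higher (75%), where 32.4% of all genes were. Rpl6 had 4405 with KA+NAP, 4210 with KA, 3188 with NAP and 2633 with PBS. Its 2 arrays with kainic acid were close. The KA differences of Rpl6 were 0.47 in KA+NAP minus NAP and 0.68 in KA minus PBS. The first less the second was −0.21, the lowest such value among members past the filter.

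**Figure D1:**
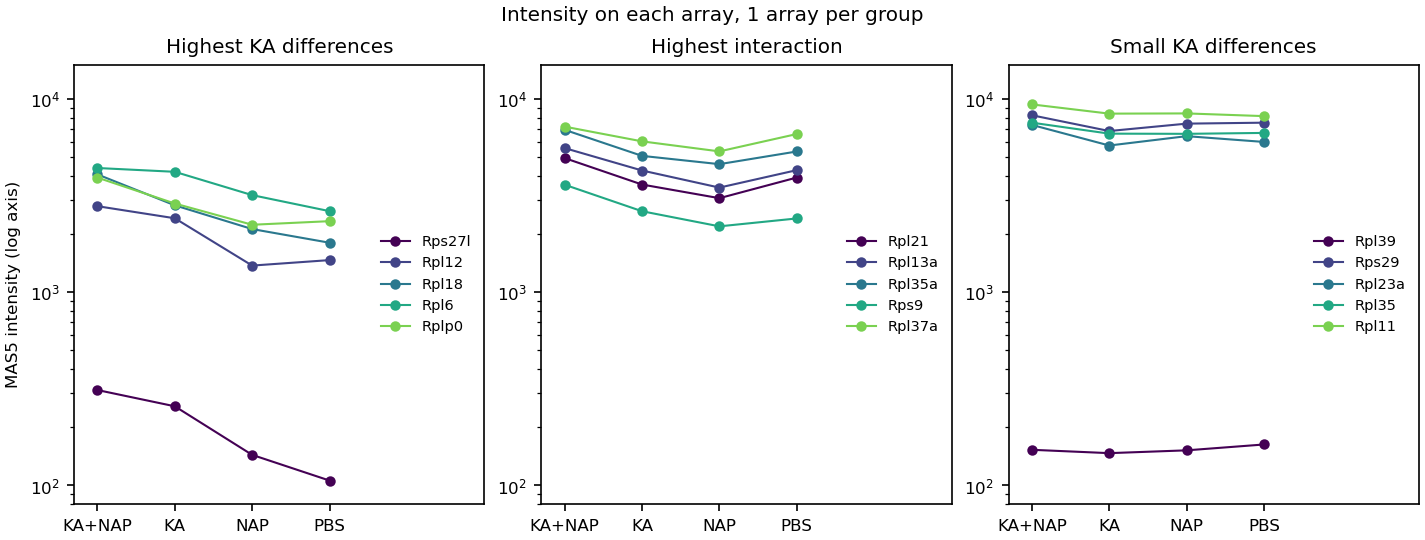
MAS5 intensity of 15 ribosomal protein genes on the KA+NAP, KA, NAP and PBS arrays (log axis), with 1 point per array. Rps27l, Rpl12, Rpl18, Rpl6 and Rplp0 (left) are higher on both arrays with kainic acid, and the middle genes are highest with KA+NAP and lowest with NAP. Those at right have small KA differences, though Rpl23a (0.35) and Rps29 (0.27) are at least 1.2-fold higher in KA+NAP minus KA. Heights of different genes come from different probe sets and cannot be compared.

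The toxin alone is described by KA against PBS. The members had a median log2 difference of 0.12, against 0.02 over all genes past the filter. 14 of 40 were at least 1.2-fold higher, or 35.0%, a share near that of all genes, 29.1%. 0 were at least 1.2-fold lower, where 24.9% of all genes were. In 30 members the difference was above 0, against 52.2% of all genes. Rps27l was the 1 gene at 2-fold, where 4.91% of all genes were 2-fold higher. The middle range of members, from 0.02 to 0.34 between the quartiles, was narrower than that of all genes, from −0.26 to 0.32. Large subunit genes had a median of 0.10 and small subunit genes 0.15.

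The direction of the KA minus PBS median held under all alternatives run, but its size did not. It was 0.27 after quantile normalization of the 4 arrays, with 23 members at least 1.2-fold higher (57.5%, against 27.3% of all genes). After removal of a trend over intensity it was 0.25, with 19 (47.5%, against 29.4%). With each array centred on its median gene it was 0.06, with 11 (27.5%, against 24.8%).

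The toxin in animals that also had the peptide is described by KA+NAP against NAP. All 40 members were above 0, against 52.3% of all genes, with a median of 0.35 against 0.03. 27 were at least 1.2-fold higher (67.5%), where 30.4% of all genes were, and 0 were at least 1.2-fold lower, where 26.1% were. Rpl12 and Rps27l reached 2-fold, against 5.66% of all genes. With quantile normalization, the trend removed or centred arrays, 39 were above 0. The lowest values were 0.01 for Rpl39, which lines the exit tunnel, and 0.14 for Rps29, a zinc-binding small subunit protein. The median was 0.36 for large and 0.34 for small subunit genes.

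**Figure D2:**
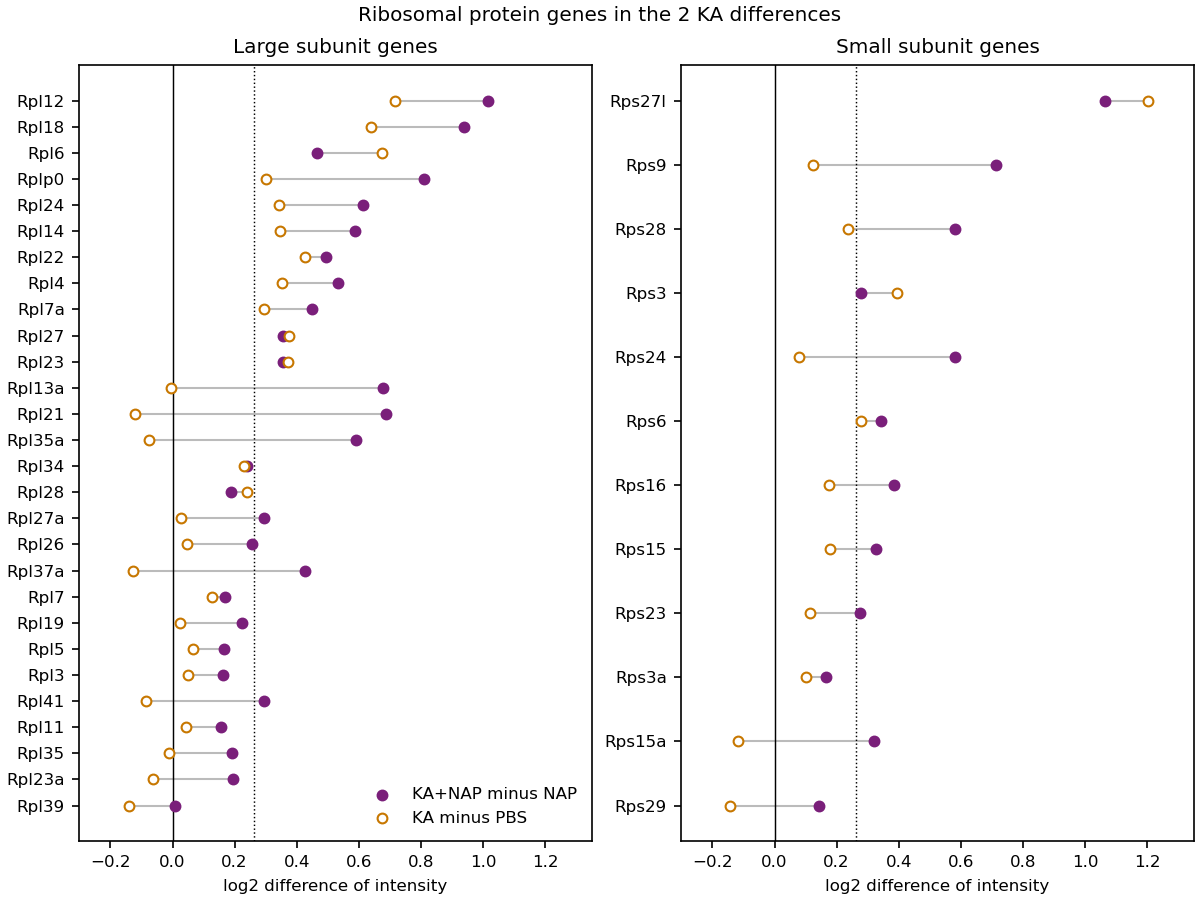
Log2 difference of each of the 28 large and 12 small subunit genes in KA+NAP minus NAP (filled) and KA minus PBS (open), ordered by their mean, with a dotted line at 1.2-fold. Every filled point is above 0, and for most genes it is to the right of the open one, with Rpl6, Rps27l and Rps3 among the exceptions.

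These 2 KA differences share no array. Across the 40 members they correlated at Pearson r = 0.62 and Spearman rho = 0.48, against 0.70 and 0.61 over all genes past the filter, as a description, since genes of 1 array share its scaling and are not replicates. Without Rps27l, r was 0.51. Of the members, 14 were at least 1.2-fold higher in both differences, against 18.5% of all genes. Rpl24, a large subunit protein, had intensities of 3328 with KA+NAP, 2704 with KA, 2172 with NAP and 2131 with PBS. Rpl14 had 3718, 2995, 2473 and 2352 in the same order of arrays. In both genes the NAP and PBS arrays were close together and the other 2 arrays stood above them, and the differences were 0.34 and 0.61 for Rpl24 and 0.35 and 0.59 for Rpl14.

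Rpl4, which lies along the exit tunnel, had intensities of 5392 with KA+NAP, 4900 with KA, 3723 with NAP and 3838 with PBS. The groups with and without kainic acid did not overlap, with differences of 0.35 in KA minus PBS and 0.53 in KA+NAP minus NAP. Rps3, which sits at the entry of the messenger RNA channel, had 6449 with KA+NAP, 5826 with KA, 5319 with NAP and 4428 with PBS. It differed from Rpl4 in its NAP array, which stood above PBS, and its differences were 0.40 and 0.28. Rps6, the small subunit protein phosphorylated by S6 kinase, had intensities of 5808 with KA+NAP, 4974 with KA, 4577 with NAP and 4100 with PBS. Both of its arrays with kainic acid were above both without, and its differences were 0.28 and 0.34. Rpl22, an RNA-binding large subunit protein, had 7148, 6112, 5074 and 4542 in the same order of arrays, with differences of 0.43 and 0.49.

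Other members differed little with kainic acid. Rpl5 and Rpl11 join 5S ribosomal RNA in the particle that binds Mdm2. Rpl5 had intensities of 7224 with KA+NAP, 5886 with KA, 6438 with NAP and 5618 with PBS, and differed by 0.07 in KA minus PBS and 0.17 in KA+NAP minus NAP. Its second highest array was NAP. Rpl11 had intensities of 9405 with KA+NAP, 8424 with KA, 8446 with NAP and 8178 with PBS, so the KA array was not above the NAP array, and differed by 0.04 and 0.15. Rpl3, which reaches the peptidyl transferase centre, differed by 0.05 and 0.16.

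Some members lie at the mouth of the exit tunnel or line it. Rpl23a, to which the signal recognition particle docks, had 7365 with KA+NAP, 5760 with KA, 6440 with NAP and 6011 with PBS, and differed by −0.06 and 0.19. Rpl35, its neighbour, had 7564, 6636, 6621 and 6694 in the same order, and differed by −0.01 and 0.19. In Rpl23a KA was the lowest array, while in Rpl35 the 3 arrays other than KA+NAP were nearly equal. Rpl39 had 153, 147, 152 and 163, all within a narrow range on a dim probe set.

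Rpl41, the smallest ribosomal protein, had 7028 with KA+NAP, 5783 with KA, 5729 with NAP and 6139 with PBS, and differed by −0.09 and 0.29. Rps29 had 8263, 6846, 7477 and 7563 in that order, and differed by −0.14 and 0.14. Rps15a, also of the small subunit, had 7361, 6197, 5890 and 6729, and differed by −0.12 and 0.32. In all 3, PBS was above KA and KA+NAP was the highest array.

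The size of the KA difference varied with the brightness of the probe set. Over the 37 members with a mean intensity above 1000, the mean of the 2 KA differences correlated with log2 mean intensity at r = −0.80 and rho = −0.79. The 13 members between 1000 and 4000 had a median of 0.42, against −0.04 in the other genes of that brightness. The 10 between 4000 and 6000 had 0.32, against −0.16 in other genes, and the 14 above 6000 had 0.11, against −0.21. The medians of other genes thus were also lower in brighter bins, so the direction of the trend is not particular to the members. Over all genes past the filter, those dimmer than 1000 included, the correlation was weaker, at r = −0.09 and rho = −0.10. The 34 unnamed probe sets that passed the filter showed the same order as the members, with rho = −0.78. The highest intensity of any probe set was 11597 on the KA array and at least 13894 on the other 3. Whether bright probe sets understate differences was not tested.

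**Figure D3:**
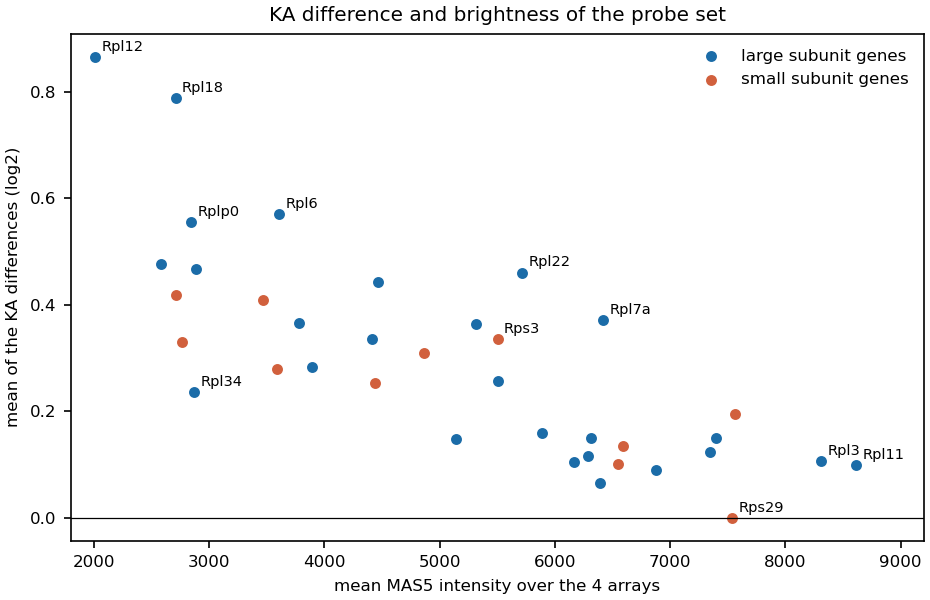
Mean of the 2 KA differences (log2) against mean MAS5 intensity for the 37 members with a mean intensity above 1000. Dimmer probe sets are higher: Rpl12, the dimmest, is at 0.87, and Rpl11, the brightest, at 0.10.

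The peptide added to the toxin is described by KA+NAP against KA. 39 of 40 members were above 0, against 53.8% of all genes, with a median of 0.25 against 0.03. 17 were at least 1.2-fold higher (42.5%), where 22.8% of all genes were, and 0 were at least 1.2-fold lower, where 15.5% were. The highest was Rpl18 at 0.53, followed by the small subunit genes Rps24 at 0.48 and Rps9 at 0.45, and by Rpl21 and Rpl35a, both at 0.45. Rps24 had intensities of 3609 with KA+NAP, 2585 with KA, 2409 with NAP and 2446 with PBS, and Rps9 had 3609, 2631, 2197 and 2414. Both genes, which belong to the body of the small subunit, were thus set apart mainly by the KA+NAP array. The lowest were Rpl28 at −0.21, on a probe set of 80 with KA+NAP and 94 with KA, Rpl39 at 0.05, Rpl6 at 0.07, Rps3a at 0.10 and Rpl4 at 0.14. Large subunit genes had a median of 0.25 and small subunit genes 0.26, and 0 members reached 2-fold, where 1.52% of all genes were 2-fold higher. After quantile normalization the members' median was 0.16 with 12 genes at 1.2-fold (30.0%, against 21.1% of all genes). With centred arrays it was 0.22 with 9, and that share of 22.5% was near the 20% of all genes.

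The peptide without the toxin is described by NAP against PBS. Here the members were spread around 0, with a median of 0.04 against 0.02 over all genes and with 24 above 0, against 54.0% of all genes. 4 were at least 1.2-fold higher, where 18.2% of all genes were: Rps27l at 0.41, Rpl23 and Rpl6, both at 0.27, and Rps3 at 0.26. The next was Rpl18 at 0.23, under 1.2-fold. 3 were at least 1.2-fold lower, where 11.8% of all genes were: Rpl21 at −0.35, Rpl13a at −0.30 and Rpl37a at −0.30. With centred arrays 1 member was higher and 3 were lower. The comparisons with PBS share that array, and those with KA+NAP share theirs, so the members' values in them are not independent.

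The KA difference was larger with NAP than without it in most members. The difference with the peptide less the difference without it had a median of 0.20, against 0.00 over all genes, and was above 0 in 34 of 40, against 50.2%. 15 members were at least 1.2-fold on that side, where 24.9% of all genes were, and 0 on the other, where 23.4% were. Rpl21, a large subunit protein, had intensities of 4958 with KA+NAP, 3617 with KA, 3074 with NAP and 3932 with PBS. It was highest with KA+NAP and lowest with NAP, so its KA difference was 0.69 with and −0.12 without the peptide. Rpl13a, which in human monocytes also leaves the ribosome to silence inflammatory messages, had 5585, 4276, 3487 and 4294 in the same order, giving 0.68 with and −0.01 without it. Rpl35a had 6945, 5091, 4612 and 5364, giving 0.59 and −0.08.

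Rps9 (0.71 with and 0.12 without the peptide) was next. Rpl37a, a zinc-binding large subunit protein, had 7214 with KA+NAP, 6053 with KA, 5370 with NAP and 6605 with PBS, giving 0.43 and −0.13, the last of the 5 highest. At the other end were Rpl6, Rps27l (a difference between them of −0.14), Rps3 (0.28 and 0.40), Rpl28 (0.19 and 0.24) and Rpl27 (0.36 and 0.37). In all, 10 members were above 0 with and below 0 without the peptide, against 14.1% of all genes. That count was 1 after quantile normalization and 1 after removal of the trend over intensity, and the median became 0.10 and 0.16. After quantile normalization 26 of 40 members were above 0, and 11 were at 1.2-fold, a share of 27.5% near the 24.8% of all genes.

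**Figure D4:**
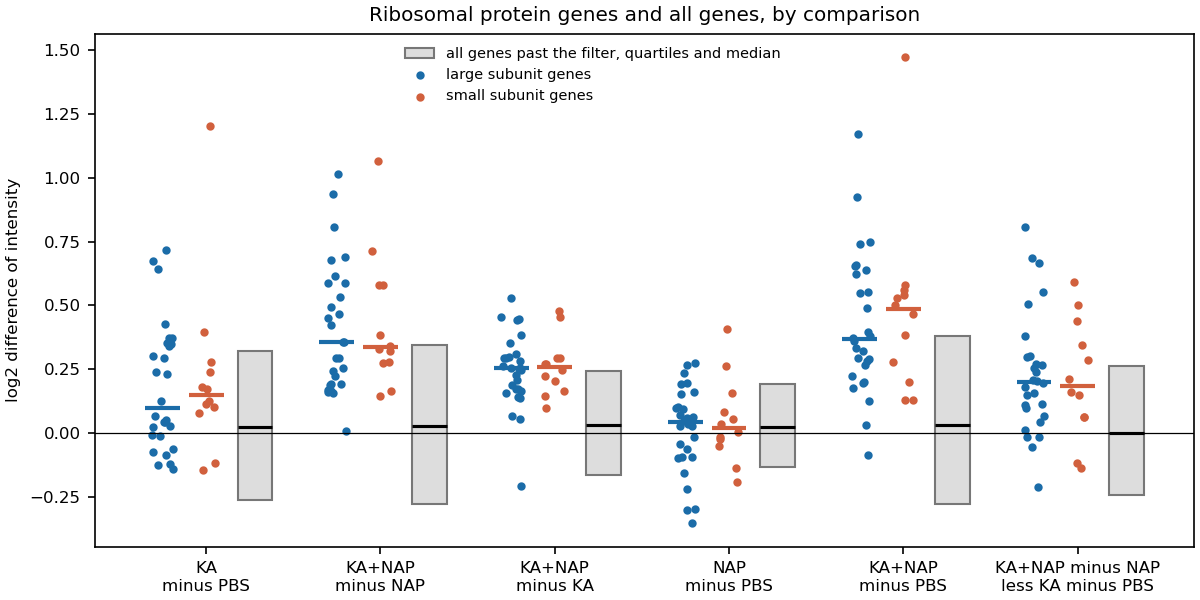
Log2 differences of the large (left) and small (middle) subunit genes in each comparison, with a bar at the median, beside the quartiles and median of all 9489 genes past the filter (grey box). All points of KA+NAP minus NAP are above 0, while NAP minus PBS is spread around 0.

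Marker and control values that differed between the arrays are given here, and their part in the results was not tested. The 11 microglia and macrophage markers, all past the filter, had a summed intensity of 4508 with KA+NAP, 2207 with KA, 2631 with NAP and 2188 with PBS. 11 of 11 were at least 1.2-fold higher in KA+NAP minus KA, where 22.8% of all genes were. In KA minus PBS 5 of these markers were at least 1.2-fold higher and 3 lower, where 29.1% and 24.9% of all genes were. In NAP minus PBS 8 were higher and 1 lower by that rule, where 18.2% and 11.8% of all genes were. In KA+NAP minus NAP 9 were higher and 0 lower, where 30.4% and 26.1% of all genes were. The 10 pan-neuronal markers summed to 27053 with KA+NAP, 27367 with KA, 34759 with NAP and 36941 with PBS, so their sum was lower with kainic acid. In KA minus PBS 7 of them were at least 1.2-fold lower, and in KA+NAP minus NAP 6, where 24.9% and 26.1% of all genes were. None was 1.2-fold higher in either. Syt1 was above 0 in the first, at 0.01, and Map2 in the second, at 0.16. The dividing cell markers, 6 of 7 past the filter, summed to 4036 with KA+NAP, 3013 with KA, 1908 with NAP and 1256 with PBS. The endothelial markers on the array, 4 of 5 past the filter, summed to 2293, 1405, 2011 and 1302 in the same order. These sums take in markers under the filter. In KA minus PBS 1 endothelial marker, Vwf, was at least 1.2-fold higher and 1, Cldn5, lower. These are 25% each of those past the filter, against 29.1% and 24.9% of all genes. The fibroblast and meningeal markers, 6 of 7 past the filter, summed to 1242 with KA+NAP, 845 with KA, 1984 with NAP and 1021 with PBS, with a median difference of 1.46 in NAP minus PBS. Of the 3 choroid plexus markers, Ttr passed the filter and was at 76 with KA+NAP, 453 with KA, 359 with NAP and 354 with PBS. Astrocyte markers summed to between 29649 and 33294 and oligodendrocyte markers to between 18233 and 20480. The astrocyte sum hides opposite differences. Of its 7 markers, 2 were at least 1.2-fold higher and 2 lower in KA minus PBS, or 28.6% each, against 29.1% and 24.9% of all genes. Vim was at 5255 with KA+NAP, 3688 with KA, 1588 with NAP and 851 with PBS, and Aldoc at 2668, 2511, 4955 and 5266. Hbb, the haemoglobin gene, was at 1549 with KA+NAP, 186 with KA, 1430 with NAP and 5 with PBS. The 3′ to 5′ ratio of the beta-actin control was 15.5 with KA+NAP, 11.4 with KA, 7.92 with NAP and 14.1 with PBS, and that of GAPDH was between 1.31 and 1.56. The ratio of the dim hexokinase control ordered the arrays otherwise, at 5.5 with KA+NAP, 6.68 with KA, 6.05 with NAP and 8 with PBS.

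The medians of the 2 subunits were set against each other in each comparison. The large minus small median was −0.05 in KA minus PBS, 0.02 in KA+NAP minus NAP, −0.01 in KA+NAP minus KA and 0.02 in NAP minus PBS. It was −0.12 in KA+NAP minus PBS, with medians of 0.37 for large and 0.48 for small. Apart from KA minus PBS and KA+NAP minus PBS, these values changed sign under 1 or more alternatives, and no test of the difference was made.

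Probe sets could be compared for few members. Rpl3 and Rpl7 had 2 probe sets past the filter. Those of Rpl7 differed from PBS by 0.13 and 0.03 with KA, and KA+NAP minus NAP was 0.17 and 0.34. The dim probe set of Rpl3, with 330, 278, 58 and 280 on the KA+NAP, KA, NAP and PBS arrays, stood out by its NAP value and gave 2.32 in KA+NAP minus NAP, where the bright one gave 0.16. Under the filter, Rpl30 had 3 with KA+NAP, 20 with KA, 23 with NAP and 19 with PBS, and Rps13 had 21, 16, 13 and 21, all too dim for a fold. The 34 unnamed probe sets past the filter had medians of 0.16 in KA minus PBS, 0.42 in KA+NAP minus NAP, 0.27 in KA+NAP minus KA and 0.02 in NAP minus PBS, and KA+NAP was highest for 33 of them.

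Genes that build or serve the ribosome are set beside the members. Of 42 ribosome biogenesis and nucleolar genes past the filter, 31 were higher by 1.2-fold or more in KA minus PBS and 28 in KA+NAP minus NAP, with medians of 0.54 and 0.58. These are 73.8% and 66.7% of the list, against 29.1% and 30.4% of all genes. Fbl, the methyltransferase fibrillarin, was at 2742 with KA+NAP, 3368 with KA, 1142 with NAP and 1305 with PBS. The RNA helicase Ddx21 (1302, 1378, 615 and 553) and Mrto4, a factor of the large subunit's assembly (426, 351, 157 and 177), likewise had both kainic acid arrays above both others. In KA+NAP minus KA the list's median was 0.07, where that of the ribosomal proteins was 0.25. At the low end, Wdr12 and Nop10 had mean KA differences of −0.11 and −0.06.

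Among 32 initiation factors, 17 were higher by 1.2-fold or more in KA minus PBS and 22 in KA+NAP minus NAP. These are 53.1% and 68.8% of the list, against 29.1% and 30.4% of all genes. The initiation factors had medians of 0.29 and 0.39. Their highest mean KA differences were those of the helicase Eif4a1 at 0.82, Eif3b at 0.75 and Eif2s2 at 0.68, and their lowest that of Eif4a2 at −0.23. 10 elongation factors and other TOP transcripts had medians of 0.29 and 0.42. The host RNA Gas5, which carries a TOP tract, was at 516 with KA+NAP, 349 with KA, 219 with NAP and 159 with PBS. Eef1a1, the main elongation factor, was at 6784, 6443, 8656 and 6321, and so was highest with NAP.

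Mitochondrial ribosomal proteins, which serve a separate ribosome, were nearer to 0. Of 73 such genes, 22 were higher by 1.2-fold or more in KA minus PBS and 25 in KA+NAP minus NAP. These shares of 30.1% and 34.2% are near the 29.1% and 30.4% of all genes. The medians were 0.10 and 0.15, and 0.04 in KA+NAP minus KA. Mrps6 had their highest mean KA difference at 1.03 and Mrps33 the lowest at −0.27. Outside the name rule, 4 genes of ribosomal or ribosome-related products passed the filter: Rpsa, Rack1, Rpl7l1 and Rsl1d1. They had medians of 0.42 in KA minus PBS and 0.67 in KA+NAP minus NAP. Rack1, a scaffold on the small subunit, was at 4172 with KA+NAP, 3177 with KA, 2656 with NAP and 2390 with PBS.

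Of 17 genes that control ribosomal protein translation or transcription, 6 were at least 1.2-fold higher and 4 lower in KA minus PBS, with a median of 0.06. These shares of 35.3% and 23.5% are near the 29.1% and 24.9% of all genes. Myc, a transcription factor that activates ribosomal genes, was at 194 with KA+NAP, 308 with KA, 56 with NAP and 54 with PBS, the highest mean KA difference of that list at 1.97. Eif4ebp1, an mTOR target that restrains initiation, had a mean KA difference of 0.74. The kinase gene Rps6ka2 had the lowest, −0.46, followed by Pdcd4 at −0.31 and the S6 kinase gene Rps6kb1 at −0.29.

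**Figure D5:**
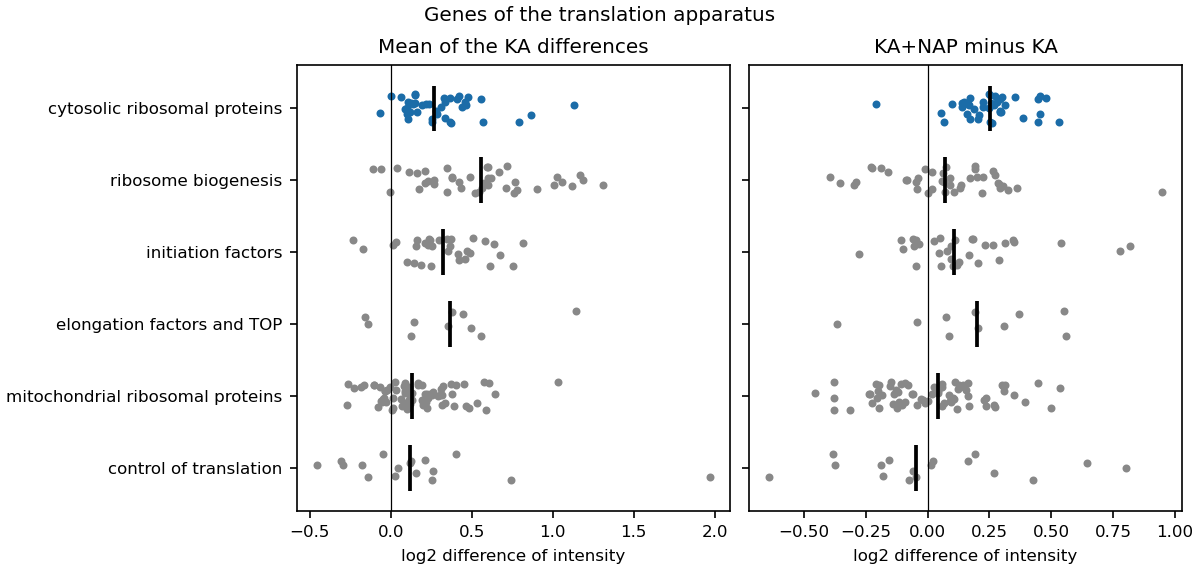
Log2 differences of the cytosolic ribosomal protein genes (top, blue) and of 5 other lists of the translation apparatus (grey), as the mean of the KA differences (left) and as KA+NAP minus KA (right). Black bars are medians. Ribosome biogenesis genes have the highest median of the labelled lists on the left, at 0.56, and the cytosolic ribosomal proteins the highest on the right, at 0.25.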

How the data were processed

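Per the labels' protocols, cRNA carrying biotin was made from 500 ng of total RNA in 2 cycles and hybridised to Affymetrix rat arrays. Per the submitters' processing notes, the authors computed signal intensities with MAS5, of unstated version, and no detection call was used here. The deposited intensities were whole numbers for 31099 probe sets, and their mean after removal of 2% at each end was 250 on every array. Symbols came from the platform annotation, which named 20826 probe sets singly. The Entrez identifiers of 41 of the 43 members were in the GRCr8 gene table, and no member's symbol changed. Promoters are from RefSeq, GRCr8. No genome build is named for the table.

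From these values the log2 of intensity plus 10 was differenced between arrays (Python 3.11.15, pandas 2.3.3, statsmodels 0.14.6 for the trend), for genes with a mean intensity above 62.75. The scripts were tested on simulated data. A call is a fold of 1.2 or 2, with no test. Alternatives were quantile normalization, removal of a loess trend over intensity, centring, pseudocounts of 1 and 50, no filter and the 75th percentile, other probe set choices and updated symbols. Named members were the 8 highest and 8 lowest mean KA differences. To these came the 5 highest and 5 lowest of KA+NAP minus KA, NAP minus PBS and the interaction. Members under the filter and a list of members fixed by role were added. Of the other translation lists, some of the 3 highest and 3 lowest are named, and single cell markers are named as examples. The members and lists were chosen with earlier results of these data known. Of that list by role, Rplp1, Rplp2, Rps19, Rpl10, Rps27a, Rpl40, Rpl10l, Rpl39l and Rps4x were not analysed here.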

Additional observations from a re-analysis of the deposited data

Results flagged for a closer look

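In 10 members (25%) the KA difference was above 0 with and below 0 without NAP, against 14.1% of all genes. Each value is from single arrays, so that the difference was not tested. Some of the signs rest on values near 0. KA minus PBS was −0.006 for Rpl13a and −0.013 for Rpl35, and KA+NAP minus NAP was 0.009 for Rpl39. The difference with NAP less that without it was 0.81 for Rpl21, 0.68 for Rpl13a, 0.66 for Rpl35a, 0.55 for Rpl37a and 0.44 for Rps15a. It was 0.38 for Rpl41, 0.29 for Rps29, 0.25 for Rpl23a, 0.20 for Rpl35 and 0.15 for Rpl39. Under quantile normalization and under removal of the trend over intensity, 1 member, Rpl21, still had opposite signs.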

How the results depend on the processing

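No paired analysis was possible because each group has 1 array, and for the same reason no replicate could be left out. Of 684 repeats of the summary results, 633 stayed within 0.1 on the log2 scale or 1.5 times a count, and 51 moved. Sign changes numbered 18, all of values near 0: 16 of the large minus small medians, none larger than 0.03 after the change, and 2 NAP minus PBS medians under centring, −0.00086 for all members and −0.02 for small subunit genes. Of 579 repeats for named genes, 29 moved. Quantile normalization gave KA minus PBS medians of 0.27 for all members, 0.27 for large and 0.30 for small subunit genes, with 23 members at least 1.2-fold higher. It gave 0.16 for small subunit genes in KA+NAP minus KA, 1 member at least 1.2-fold lower there, and 0.10 (0.0904 for large subunit genes) for the difference between the KA differences. Removing the trend over intensity gave 0.25, 0.21 and 0.27 in KA minus PBS and 0.50, 0.50 and 0.61 in KA+NAP minus PBS for all, large and small. Under both, 1 member had opposite signs, and 1 had both arrays with kainic acid below the others, as under centring. Centring left 1 member at 2-fold in KA+NAP minus NAP, 9 at 1.2-fold in KA+NAP minus KA, 1 at 1.2-fold in NAP minus PBS and PBS lowest for 15.

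The counts at 2-fold and the correlation changed with several settings. With the filter at the 75th percentile, without Rps27l, or without members dimmer than 1000, the last 2 settings chosen after seeing the data, 0 members were at 2-fold in KA minus PBS, 1 in KA+NAP minus NAP and 1 in KA+NAP minus PBS. The r between the KA differences was then 0.50, 0.51 and 0.50, and that of KA+NAP minus KA with NAP minus PBS was −0.40 under the stricter filter and without dim members. A pseudocount of 50 left 0 and 0 members at 2-fold in the KA differences. The mean over probe sets gave 1 member (Rpl3) 2-fold lower in NAP minus PBS, 1 member 2-fold higher in the difference between the KA differences, and r = 0.50. Without a filter, 1 member (Rpl30) was at least 1.2-fold and 2-fold lower on the KA+NAP array against each of the NAP, KA and PBS arrays and in the difference between the KA differences, and r was 0.45. Where no construction shows it, the cause was not tested. Dim probe sets limit Rpl28, Rpl39 and Rps27l.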
